A study of Mus musculus with 9 samples.

Results

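The genes described here are Brdt, Brd2 and Brd3 of the BET (bromodomain and extra-terminal domain) family. They were chosen by symbol: every entry of the deposited testis RNA table that carries 1 of these names was taken, which gave 3 of 38685 entries. All 3 passed the filter on low counts that left 14893 genes for testing. Other genes of the family are not described here.

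The study compared testes of C57BL/6 males that carry both copies of the protamine 2 gene (Prm2+/+), 1 mutated copy (Prm2+/-) or no intact copy (Prm2-/-, labelled Prm2-deficient), with 3 libraries for each genotype. The Prm2 alleles were made by CRISPR/Cas9 editing and are carried in all cells of the animal, and no other allele or agent is named. The 3 libraries of a genotype are biological replicates by the study's description. The age of the males is not given in the sources used here. RNA was taken from testicular tissue freed of the tunica albuginea, so it holds all germ cell stages and the somatic cells together, and fewer cells of a type cannot be told apart from less RNA per cell.

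BET proteins read acetylated lysines. Each carries paired bromodomains, which bind acetylated histone tails, and an extra-terminal domain, which recruits other chromatin proteins. Brd2 and Brd3 are made in many tissues and help RNA polymerase II to transcribe acetylated chromatin, in part with the kinase P-TEFb. Brdt is the testis-specific member. It drives transcription in meiotic and post-meiotic germ cells, and in elongating spermatids it binds hyperacetylated histone H4 while histones give way to transition proteins and then to protamines such as Prm2.

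The libraries were made with QuantSeq, which reads the 3′ ends of polyadenylated transcripts. The letters at those ends are therefore shown for the outermost annotated coding transcript of each gene, as 1 place where its reads may start. The deposited values hold no read positions, so which end the reads came from cannot be told. The sequences are the last 30 bases of the GENCODE M21 transcript (build GRCm38), written 5′ to 3′ on the strand of the gene, with the polyadenylation hexamer AATAAA or ATTAAA in capitals.
Brdt, plus strand, chr5:107387029-107387058: tttctactttttaATTAAAaactttatatg
Brd2, minus strand, chr17:34112023-34112052: taAATAAAgaaaatattattgaagttttga
Brd3, minus strand, chr2:27445579-27445608: tttgttttcatAATAAAaagggaaagaaga
Each of these ends holds a hexamer on the transcript's own strand, which was the only strand searched. Of 45047 ends of annotated coding transcripts, 43.9% held AATAAA in the same window, 11.9% held ATTAAA and 54.4% held either. Shorter coding transcripts end elsewhere: 36317 bp upstream for Brdt, 340 bp upstream for Brd2, and 21 and 2264 bp upstream for Brd3. None of these 4 ends held a hexamer in its last 30 bases. The table gives 1 value per gene, so reads of the different ends are summed.

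Brdt (ENSMUSG00000029279) spans chr5:107331159-107387058 on the plus strand, with 4 annotated transcripts. Brd2 (ENSMUSG00000024335) spans chr17:34112023-34122634 on the minus strand, with 19 annotated transcripts. Brd3 (ENSMUSG00000026918) spans chr2:27445579-27507662 on the minus strand, with 10 annotated transcripts. Whether counting used the strand is not given in the sources used here, so reads of a gene and of an overlapping gene on the other strand may not be separated. The 1 overlapping gene with its own values was H2-DMa, which lies across from Brd2 and held 0 to 32.0 normalized counts in the 9 libraries.

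Between 3629929 and 4490411 counts were recovered per library. The Prm2 transcript itself stood at 29716 to 39665 normalized counts in Prm2+/+, 30174 to 34487 in Prm2+/- and 34660 to 42766 in Prm2-/-. It was not lower in the libraries labelled Prm2-/-, so it does not check the labels, and every direction given here rests on the labels alone. Every list of testis cell markers was detected, with 0 markers at 0 in all 9 libraries. Replicate 3 of Prm2+/+ stood apart in some spermatocyte markers, above all Ldhc, with 2505 normalized counts against 27414 to 36393 in the other libraries, and Ccna1, with 6.63 against 491 to 644. Of the 9 spermatocyte markers, 6 were lower there than in all other libraries, although Piwil1 was close to the rest (2654 against 2792 to 3075) and Pgk2 was highest there. Several of the fold changes and ratios that this library moves by much are also given without it. The comparison of Prm2-/- with the mean of both other genotypes was run only with all 9 libraries.

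All 3 BET genes were well expressed in the testis, in the order Brd2, Brdt, Brd3 in every library. Per kilobase of the longest annotated transcript, the Prm2+/+ level was 417 ± 60.7 (SD, n = 3) normalized counts for Brd2, 255 ± 28.2 for Brdt and 159 ± 30.8 for Brd3. These levels lay at percentiles 93.4, 89.8 and 84.8 of the 14870 tested genes with a known length. Reads from 3′ ends do not grow with transcript length, and the order is the same without the division by length. The percentiles were computed only with this division, which ranks genes with long transcripts lower.

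Brdt, the germ cell member, had similar mean levels in the 3 genotypes. Its normalized counts were 1345, 1077 and 1203 in Prm2+/+ replicates 1 to 3. They were 1384, 1347 and 796 in Prm2+/-, and 1217, 1270.5 and 982 in Prm2-/-. The genotypes overlapped, and the lowest of all 9 values was replicate 3 of Prm2+/-. The means were 1208 ± 134 (SD, n = 3), 1176 ± 329 and 1157 ± 153 in that order of genotypes.

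Brd2, the most abundant of the genes, had its lowest levels in Prm2-/-. Its normalized counts were 2025, 2171 and 1625 in Prm2+/+, 2434, 2305 and 1821 in Prm2+/-, and 1449.9, 1489 and 1230.2 in Prm2-/-. All 3 Prm2-/- libraries lay below all 6 others, as for 2.2% of all tested genes, while Prm2+/+ and Prm2+/- overlapped. The means were 1940.5 ± 282 (SD, n = 3) in Prm2+/+, 2187 ± 323 in Prm2+/- and 1389.6 ± 139 in Prm2-/-.

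Brd3, the least abundant, had its lowest levels in Prm2+/-. Its normalized counts were 795, 737 and 1051 in Prm2+/+, 726, 656 and 702 in Prm2+/-, and 902, 838 and 832 in Prm2-/-. The Prm2+/- libraries lay below those of both other genotypes, whose values overlapped each other. Of all genes, 4.56% had Prm2+/- libraries below those of Prm2+/+, and 7.47% had them below those of Prm2-/-. The share with both was not computed. The means were 861 ± 167 (SD, n = 3), 695 ± 35.6 and 857 ± 38.7 for Prm2+/+, Prm2+/- and Prm2-/-. The highest Brd3 value and the lowest Prm2+/+ value of Brd2 both came from replicate 3 of Prm2+/+. Replicate 3 also had the lowest Brd2 value of its genotype in Prm2+/- and in Prm2-/-.

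**Figure D1:**
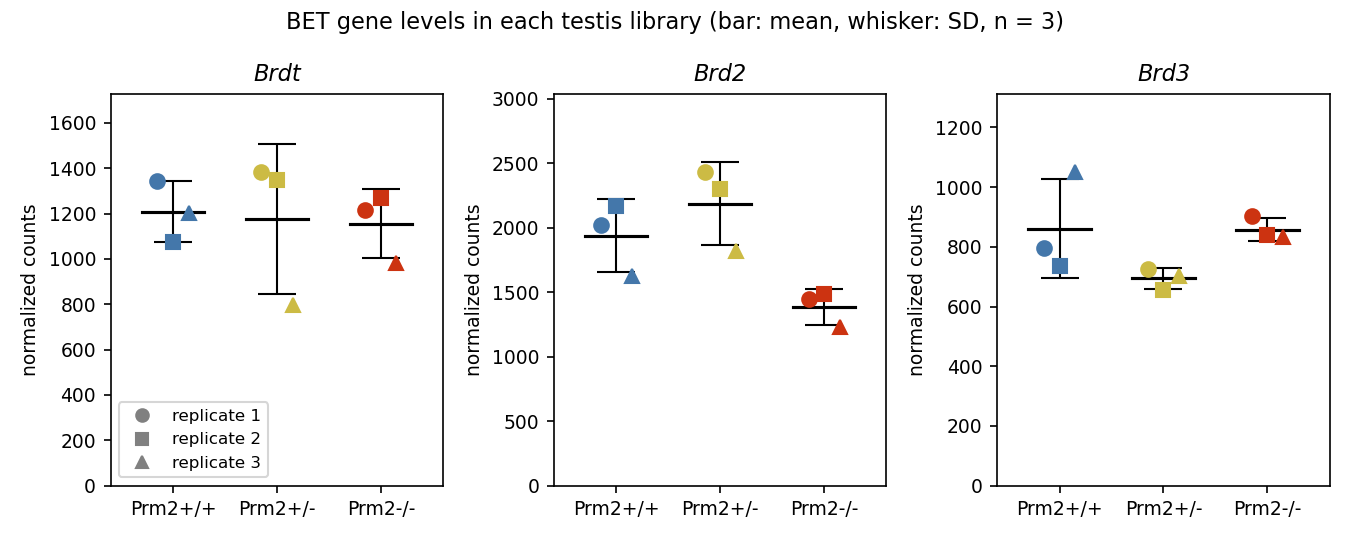
Normalized counts (vertical axis, from 0) of Brdt, Brd2 and Brd3 in each of the 9 libraries by genotype (horizontal axis). Symbols give the replicate number, horizontal bars the mean and whiskers the SD of 3 libraries. The Prm2-/- libraries of Brd2, between 1230.2 and 1489, lie below the 6 others, while the genotypes overlap for Brdt.

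The spread between libraries was larger than counting error for every gene, but for Brd3 only by little in Prm2+/- and Prm2-/-. There the coefficient of variation was 5.12% and 4.51%, against 3.65% and 3.39% from counting, and the excess was not tested. The coefficient of variation within a genotype ran from 4.51% for Brd3 in Prm2-/- to 28.01% for Brdt in Prm2+/-, against 2.06% to 3.65% from counting alone. The residual SD on the log2 scale was 0.298 for Brdt, 0.199 for Brd2 and 0.165 for Brd3. That of Brdt was larger than in 82.5% of 1204 genes with levels within a factor of 2 of its own. The highest library exceeded the lowest 1.74-fold for Brdt, 1.98-fold for Brd2 and 1.60-fold for Brd3.

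Whether loss of Prm2 goes with a change in these genes was tested with limma across all 14893 genes, on log2(normalized count + 1). A gene was called where its log2 fold change (LFC) passed 0.5 up or down and its p, adjusted by Benjamini-Hochberg, was under 0.05. Between Prm2-/- and Prm2+/+, 0 of the 3 BET genes were called, against 0.181% of all genes (27 genes). Brd2 had an LFC of -0.48 (SE 0.15, 95% interval -0.82 to -0.13), or 0.719 times the Prm2+/+ level, with an unadjusted p of 0.0135 and an adjusted p of 0.563 by limma. By its p it ranked 354th of the 14893 genes. At an unadjusted p under 0.05 stood 7.33% of all genes, and Brd2 alone of the BET genes. Groups that do not overlap, with Prm2-/- lower, were found for 7.1% of all genes. Without replicate 3 of Prm2+/+ the LFC of Brd2 was -0.60, with an adjusted p of 0.332 by limma.

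Brdt and Brd3 differed by little between Prm2-/- and Prm2+/+. The LFC of Brdt was -0.07 (95% interval -0.57 to 0.44), which spans 0.673 to 1.36 times the Prm2+/+ level, with an adjusted p of 0.953 by limma. That of Brd3 was 0.01 (95% interval -0.29 to 0.31), which spans 0.815 to 1.24 times the Prm2+/+ level, with an adjusted p of 0.994. Without replicate 3 of Prm2+/+ the Brd3 value was 0.16. The intervals are per gene and are not adjusted for the number of genes.

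Between Prm2-/- and Prm2+/-, again 0 of the 3 genes were called by limma, against 0.175% of all genes. The largest difference of a BET gene in any comparison was here: Brd2 had an LFC of -0.65 (SE 0.15, 95% interval -0.99 to -0.30), or 0.638 times the Prm2+/- level. Its unadjusted p was 0.00264, rank 77 of 14893, and its adjusted p was 0.510. It was again the only BET gene at an unadjusted p under 0.05, where 5.44% of all genes stood. With DESeq2 on the recovered counts the LFC of Brd2 was the same to 2 decimals (-0.65) and the adjusted p was 0.0390, so Brd2 was called lower by DESeq2, which called 0.131% of 18260 genes lower. This was the only call of a BET gene under any setting tried. Groups that do not overlap, with Prm2-/- lower, made up 7.25% of all genes.

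Brd3 had an LFC of 0.30 between Prm2-/- and Prm2+/- (SE 0.13, 95% interval -0.0013 to 0.61), with an unadjusted p of 0.0508 and an adjusted p of 0.916 by limma. Its groups did not overlap, as for 7.47% of all genes with Prm2-/- higher. Brdt had an LFC of 0.01 (95% interval -0.49 to 0.52) in this comparison. Without replicate 3 of Prm2+/- it was -0.25, with an adjusted p of 0.9997 by limma.

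Between Prm2+/- and Prm2+/+, 0 of the 3 genes were called, against 0.0806% of all genes (12 genes), and 0 of the 3 had an unadjusted p under 0.05, against 4.24% of all genes. Brd3 had an LFC of -0.29 (SE 0.13, 95% interval -0.60 to 0.01), with an unadjusted p of 0.0571 and an adjusted p of 0.842 by limma. Its groups did not overlap, as for 4.56% of all genes with Prm2+/- lower, and without replicate 3 of Prm2+/+ the value was -0.14. Brd2 had an LFC of 0.17 (95% interval -0.18 to 0.52), and without replicate 3 of Prm2+/+ it was 0.05. Brdt had an LFC of -0.08 (95% interval -0.58 to 0.43), which was 0.18 without replicate 3 of Prm2+/-. The 3 comparisons share libraries and are not independent of each other.

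**Figure D2:**
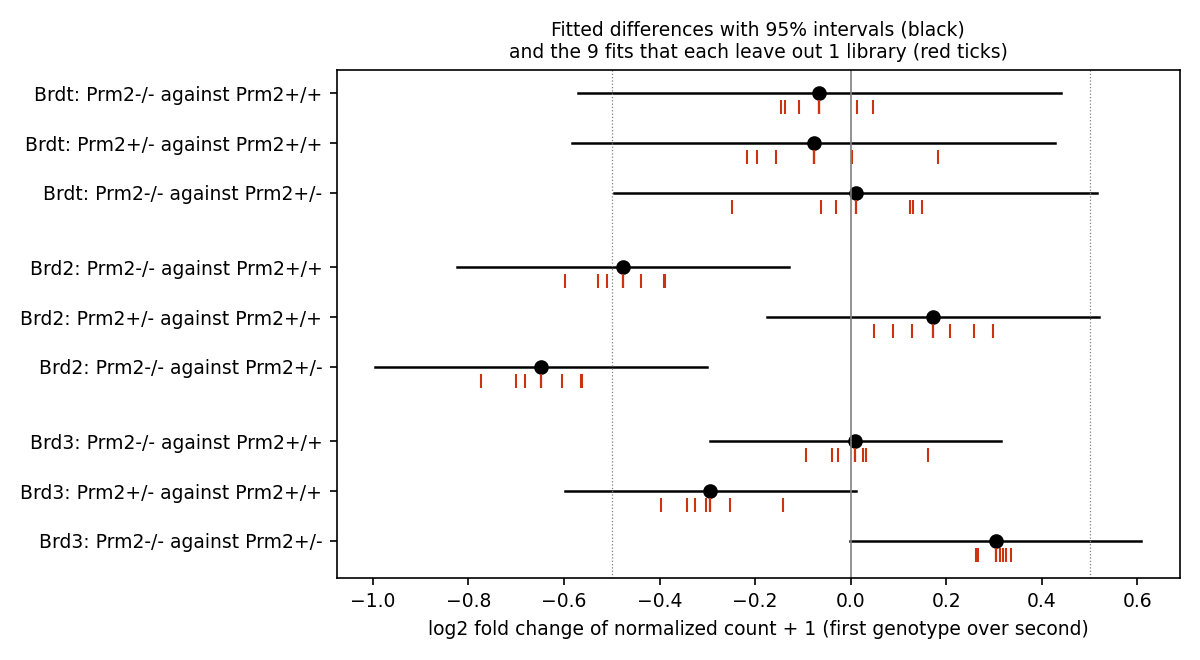
LFC of log2(normalized count + 1), first genotype over second (horizontal axis), for each BET gene in the 3 comparisons. Points are limma estimates, black lines their 95% intervals, red ticks the 9 fits that each leave out 1 library, and dotted lines mark an LFC of 0.5 in either direction. The Brd2 ticks run from -0.60 to -0.39 for Prm2-/- against Prm2+/+ and from -0.77 to -0.56 for Prm2-/- against Prm2+/-. The Brd2 groups of both comparisons do not overlap, so leaving out 1 library could not turn the sign. Fits without a library of the genotype not compared give the same LFC as the fit of all 9 libraries.

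Since the Prm2-/- libraries of Brd2 lay below those of both other genotypes, Prm2-/- was also set against the mean of the other 2, a comparison chosen after the data were seen. The LFC of Brd2 was then -0.56 (SE 0.13, 95% interval -0.86 to -0.26), with an unadjusted p of 0.00261, rank 103, and an adjusted p of 0.378 by limma. Of all tested genes, 328 (2.2%) had their Prm2-/- libraries below all 6 others. The LFC was 0.16 (95% interval -0.11 to 0.42) for Brd3 and -0.03 (95% interval -0.47 to 0.41) for Brdt.

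The summed levels of some marker lists did not overlap between genotypes. Of all tested genes, 7.1% were lower without overlap in Prm2-/- than in Prm2+/+, and 4.56% in Prm2+/- than in Prm2+/+. Between Prm2-/- and Prm2+/-, 7.25% were lower without overlap in Prm2-/- and 7.47% were higher. The share for sums of several genes was not computed. The summed levels of spermatogonia, round spermatid, elongating spermatid, Leydig cell and macrophage markers overlapped between the genotypes in all 3 comparisons. The summed level of the 9 spermatocyte markers was 12969 to 43897 normalized counts in Prm2+/+, a range that, unlike that of Brd2, overlapped Prm2-/-. It was 37665 to 39424 in Prm2-/- and 41265 to 47351 in Prm2+/-, without overlap. All 8 tested markers had an LFC below 0 in this comparison, in which Brd2 had its largest difference. Their median LFC was -0.12, against -0.0059 over all genes, and none was called. Ldhc made up most of the summed level, and the sum without it was 10251 to 10851 in Prm2-/- and 10959 to 11478 in Prm2+/-. The summed level of the 4 peritubular markers, contractile genes such as Acta2 and Myh11, was 293 to 325 normalized counts in Prm2+/+, 254 to 277 in Prm2+/- and 226 to 271 in Prm2-/-. It was lower in Prm2-/- than in Prm2+/+, as Brd2 was, while its Prm2+/- and Prm2-/- ranges overlapped. Unlike Brd2, it was also lower in Prm2+/- than in Prm2+/+, without overlap. The summed level of the 7 Sertoli cell markers was 2416 to 3912 in Prm2+/+, 2456 to 2573 in Prm2+/- and 2831 to 3546 in Prm2-/-. Its highest value was in replicate 3 of Prm2+/+, where Brd3 was highest too. Its Prm2+/- libraries lay below those of Prm2-/-, as for Brd3. Unlike for Brd3, its Prm2+/- and Prm2+/+ ranges overlapped. The markers of this list did not move alike. Clu, the most abundant, had 2038 ± 433 (SD, n = 3), 1725 ± 107 and 2038 ± 134 in Prm2+/+, Prm2+/- and Prm2-/-. Amhr2 had 236 ± 395, 10.5 ± 2.44 and 365 ± 306, and Cldn11 had 295 ± 21.9, 295 ± 17.4 and 303 ± 11.7. The part of these cells in the BET values was not tested.

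The balance between the BET genes within a library does not depend on the scaling of the libraries. Brd2 made up 48.6%, 54.5% and 41.9% of the summed normalized counts of the 3 genes in Prm2+/+ replicates 1 to 3. Its share was 53.6%, 53.5% and 54.9% in Prm2+/-, and 40.6%, 41.4% and 40.4% in Prm2-/-. Each Prm2-/- library was lower than each of the others, although replicate 3 of Prm2+/+ came within a percentage point. The Brd2 counts alone already lay lowest in Prm2-/-, so this share and the ratios to Brd2 are no separate result. How often shares or ratios of other genes do the same was not computed. The mean share was 48.3 ± 6.30% (SD, n = 3), 54.0 ± 0.765% and 40.8 ± 0.511% in Prm2+/+, Prm2+/- and Prm2-/-.

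The ratio of Brdt to Brd2 was 0.664, 0.496 and 0.740 in Prm2+/+, 0.569, 0.585 and 0.437 in Prm2+/-, and 0.839, 0.853 and 0.798 in Prm2-/-. Brdt transcripts were thus closest in number to those of Brd2 in Prm2-/-, and no library of another genotype reached the Prm2-/- range. The log2 ratio was higher in Prm2-/- by 0.41 than in Prm2+/+ and by 0.66 than in Prm2+/- (exact two-sided permutation test, p = 0.1 for each, n = 3 against 3, adjusted p = 0.3 over 9 tests). A p of 0.1 is the smallest that this test can give with 3 against 3 libraries, so it cannot pass 0.05 here. Without replicate 2 of Prm2+/+ the difference of 0.41 was 0.24, and without replicate 3 of Prm2+/+ it was 0.53.

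The log2 ratio of Brd3 to Brd2 was 0.95 higher in Prm2-/- than in Prm2+/-, without overlap (exact permutation test, p = 0.1, adjusted p = 0.3). Against Prm2+/+ it was 0.49 higher with overlapping libraries (exact permutation test, p = 0.3), because replicate 3 of Prm2+/+ had a ratio of 0.646, inside the Prm2-/- range of 0.563 to 0.676. That difference was 0.76 without replicate 3 and 0.30 without replicate 2 of Prm2+/+. Between Prm2+/- and Prm2+/+ the differences were -0.47 for Brd3 to Brd2 (exact permutation test, p = 0.2) and -0.25 for Brdt to Brd2 (p = 0.4). Without replicate 3 of Prm2+/+ they were -0.19 and -0.13, and the second was -0.42 without replicate 2 of Prm2+/+ and -0.12 without replicate 3 of Prm2+/-. The ratio of Brdt to Brd3 overlapped in all 3 comparisons, with exact permutation p between 0.4 and 0.8.

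**Figure D3:**
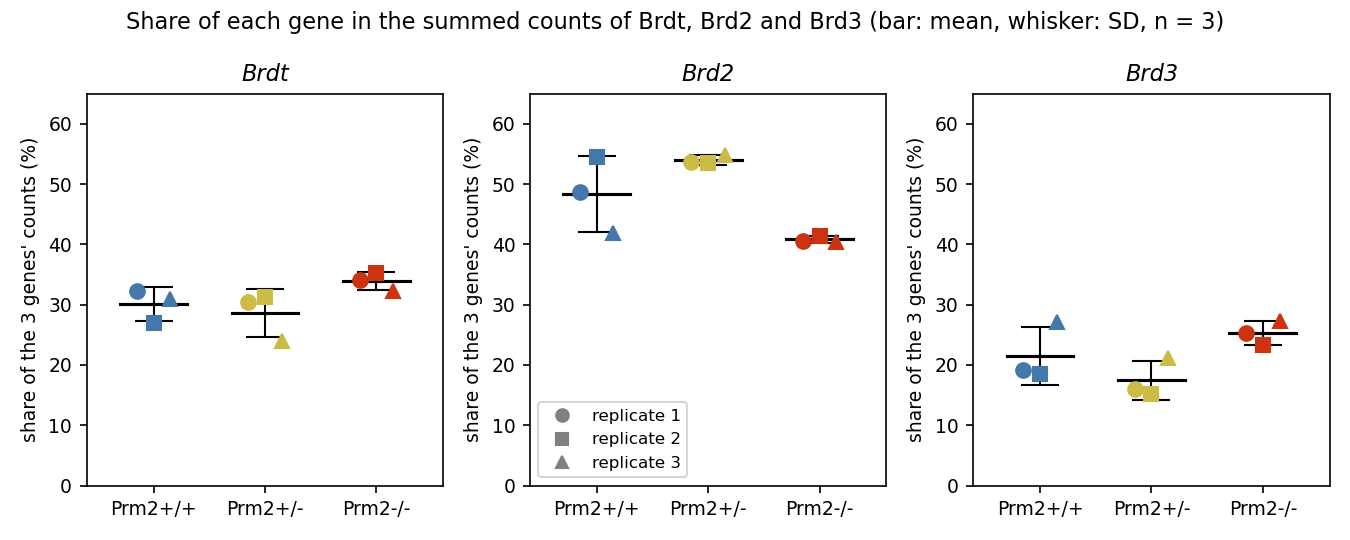
Share of each gene in the summed normalized counts of Brdt, Brd2 and Brd3 in a library (vertical axis, percent, from 0) by genotype (horizontal axis). Symbols give the replicate number, horizontal bars the mean and whiskers the SD of 3 libraries. The Brd2 share is 40.4% to 41.4% in Prm2-/- and 53.5% to 54.9% in Prm2+/-, with the Prm2+/+ libraries spread from 41.9% to 54.5%.

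Genes that work beside BET proteins were read from 4 lists. The lists were chosen with earlier results of these data known, so their counts of called genes are no separate result. Of 33 bromodomain genes outside the BET family, all tested, 0 were called higher and 1 lower in Prm2-/- than in Prm2+/+, against 0.154% and 0.0269% of all genes. The called gene was Trim24, which encodes a co-regulator of nuclear receptors. Its normalized counts were 1287, 1249.5 and 256 in Prm2+/+, 1191, 1275 and 1139 in Prm2+/-, and 50.7, 38.6 and 31.7 in Prm2-/-. The Prm2-/- libraries lay far below the rest, and replicate 3 of Prm2+/+ was the lowest of the others. The LFC was -4.20 (adjusted p = 0.0445 by limma) against Prm2+/+ and -4.89 (adjusted p = 0.0186) against Prm2+/-. The call against Prm2+/+ was lost in 8 of the 9 fits that leave out 1 library, all but the fit without replicate 3 of Prm2+/+, with adjusted p up to 0.159. The call against Prm2+/- was lost in 6 of 9, the fits without a Prm2+/- or a Prm2-/- library, with adjusted p up to 0.0879, and DESeq2 and edgeR made both calls. The call against Prm2+/+ was also lost with at least 10 reads in every library, with only the 6 libraries compared, without a trend of the variance and with the replicate block, at adjusted p of 0.0504, 0.135, 0.0650 and 0.0911 by limma, and the call against Prm2+/- with the block (0.0521). The LFC stayed between -4.97 and -3.81 against Prm2+/+ and between -5.06 and -4.73 against Prm2+/- in the fits that leave out 1 library.

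The other bromodomain genes were not called. The chromatin remodelling genes Baz1a, Smarca2 and Brd7 had LFC of -0.18, 0.09 and 0.33 between Prm2-/- and Prm2+/+. The acetyltransferase gene Kat2a had an LFC of -0.40 (unadjusted p 0.0237, adjusted p 0.611 by limma). Trim28, which encodes a co-repressor, had 794 ± 595 normalized counts (SD, n = 3) in Prm2+/+ and 962 ± 8.33 in Prm2-/-. The median LFC of the list was -0.01, against 0.02 over all genes.

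The list of P-TEFb and transcript elongation had 25 of 26 genes tested. It had 0 genes called by limma in any of the 3 comparisons, against 0.0806% to 0.181% of all genes. Its median LFC between Prm2-/- and Prm2+/+ was 0.01, against 0.02 over all genes, with 13 genes above 0 and 12 below. The P-TEFb cyclin genes Ccnt1 and Ccnt2 had LFC of 0.30 and -0.65, with adjusted p of 0.721 and 0.716 by limma. Larp7, whose product holds P-TEFb in its inactive complex, was the most abundant gene of the list, at 4727 ± 542 normalized counts (SD, n = 3) in Prm2+/+ and 4161 ± 114 in Prm2-/-. The elongation factor genes Supt5 and Nelfe had LFC of 0.12 and -0.11.

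Of the genes for histone acetylation in spermatids, 20 of 23 were tested. By limma 0 were called in any comparison, against 0.0806% to 0.181% of all genes. The median LFC between Prm2-/- and Prm2+/+ was -0.10, against 0.02 over all genes, with 6 genes above 0 and 14 below. These signs were not compared with those of all genes. The deacetylase genes Hdac2 and Hdac11 had LFC of -2.62 (adjusted p 0.392 by limma) and -2.12 (adjusted p 0.630), while Hdac1 had -0.11. Hdac2 was at 108 ± 12.8 normalized counts (SD, n = 3) in Prm2+/+, 49.9 ± 55.3 in Prm2+/- and 16.7 ± 1.21 in Prm2-/-. DESeq2 called Hdac2 lower in Prm2-/- than in Prm2+/+, as did limma on only the 6 libraries compared and limma without replicate 1 of Prm2+/-. Without that replicate limma also called Hdac2 lower in Prm2+/- than in Prm2+/+. Hdac11 was called by limma against both other genotypes only without replicate 3 of Prm2-/-. The histone acetyltransferase genes Kat7 and Kat8 had LFC of -0.12 and -0.22.

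Of the genes for histone removal and replacement, the step that Brdt takes part in, 14 of 18 were tested. By limma 0 were called in any comparison, against 0.0806% to 0.181% of all genes. The median LFC between Prm2-/- and Prm2+/+ was -0.10, against 0.02 over all genes, with 3 genes above 0 and 11 below. These signs were not compared with those of all genes. The transition protein genes Tnp1 and Tnp2 had LFC of -0.12 and -0.16, with adjusted p of 0.660 and 0.741 by limma. The protamine 1 gene Prm1 had an LFC of -0.01, from 102125 ± 9495 normalized counts (SD, n = 3) in Prm2+/+ to 101082 ± 2986 in Prm2-/-. Phf7, a gene of early spermatids, and H2al2a, an H2A variant of late spermatids, had LFC of -0.29 and -0.30, with adjusted p of 0.649 and 0.696.

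**Figure D4:**
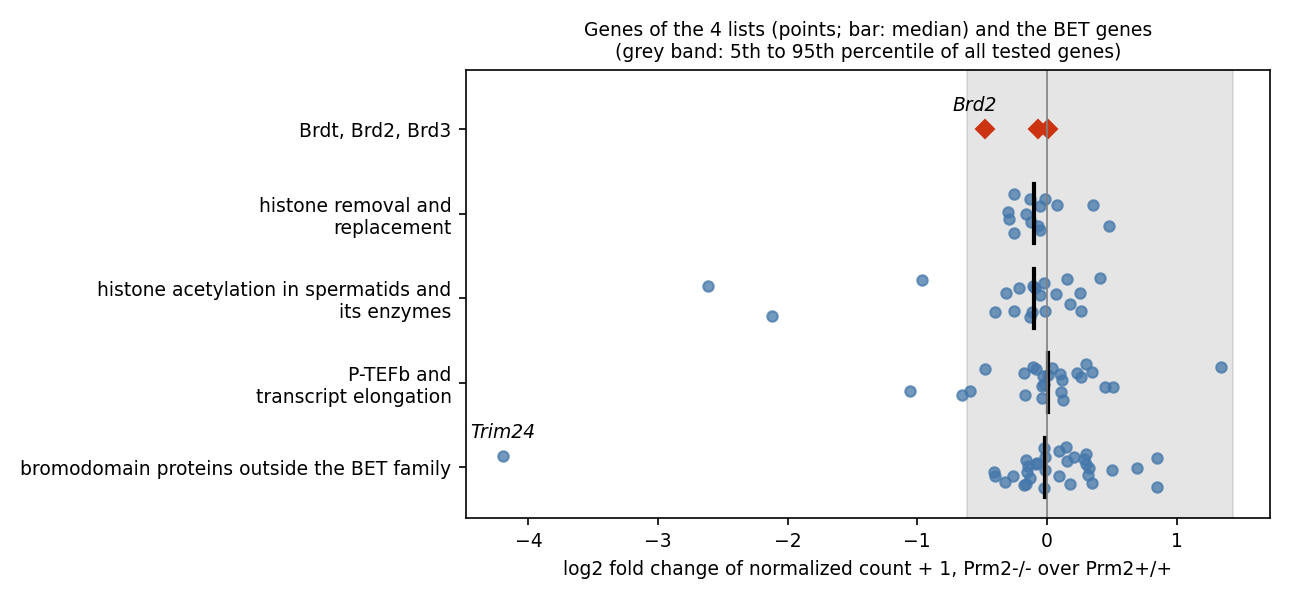
LFC between Prm2-/- and Prm2+/+ (horizontal axis) of each tested gene of the 4 lists (blue points, black bar at the median) and of Brdt, Brd2 and Brd3 (red diamonds). The grey band runs from -0.61 to 1.44, the 5th to the 95th percentile of all 14893 genes. Trim24 at -4.20 is the only called gene, and Brd2 at -0.48 lies inside the band.

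The genes whose log2 levels ran most like each BET gene over the 9 libraries were picked from 14892 others by Pearson correlation, as a description. Points share library and scaling. For Brdt they were Trabd, Rrbp1, Fam13b, Rin2 and Pcf11, with r from 0.937 down to 0.918. For Brd2 they were Rapgef5, Leo1, Trim24, Slc22a4 and Col14a1, with r from 0.937 down to 0.910. For Brd3 they were Tsnaxip1, Med9os, Rsph1, 1110017D15Rik and Clu, with r from 0.961 down to 0.941, and Clu is also in the list of Sertoli cell markers. Of these 15 genes, Trim24 alone was called between Prm2-/- and Prm2+/+, against 0.181% of all genes (27 genes). The 15 genes were picked from the same 9 libraries, so this count is no separate result.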

How the data were processed

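The deposited table holds testis RNA levels in 9 libraries, 3 for each Prm2 genotype. According to the methods, the authors trimmed the QuantSeq 3′ reads with Trim Galore 0.4.5, mapped them to GRCm38 with HISAT2 2.1, quantified with StringTie 1.3.3, removed pseudogenes and used DESeq2. Deposited is a signal: gene counts that the authors normalized by 1 size factor per library. Division by each library's smallest value gave whole reads for 100% of values (tolerance 0.01), although for replicate 1 of Prm2+/- that value is close to 1, which makes the sign weaker. Of the entries, 99.6% matched GENCODE M21, which uses GRCm38. limma (lmFit, eBayes with trend) was fitted to log2(value + 1) of all 9 libraries with genotype as the only term, after filterByExpr. Ratios within a library were tested by exact permutation. The limma fit was tested on simulated data for Prm2-/- against Prm2+/+, and the other steps were not. The named genes are the members, the called genes of each list, its 3 most abundant and its 3 with the smallest p, and the 5 genes most like each member. The members and lists were chosen with earlier results of these data known. The alternatives covered scaling, pseudocount, filter, samples, trend, block, tool and leaving out each library. Python 3.11.15 with scipy 1.17.1 and R 4.3.3 were used, with DESeq2 1.42.0, edgeR 4.0.16 and limma 3.58.1.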

Additional observations from a re-analysis of the deposited data

How the results depend on the processing

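Under the alternatives run, the Prm2-/- LFC of Brd2 was -0.60 to -0.39 against Prm2+/+ and -0.77 to -0.56 against Prm2+/-. Its sign could not turn when 1 library was left out, because the groups did not overlap. The filter, the trend, the block and the use of only 6 libraries do not enter the LFC and left it unchanged. Scaling, pseudocount and tool do enter it, and gave -0.48 to -0.47 against Prm2+/+ and -0.66 to -0.64 against Prm2+/-. The call of Brd2 against Prm2+/- by DESeq2 (-0.65, adjusted p 0.0390) was the only call of a BET gene. Over all alternatives of that result the adjusted p ran from 0.0390 to 0.978. Brdt between Prm2-/- and Prm2+/- turned to -0.0042 with the library total, -0.019 with edgeR and -0.024 with DESeq2, and Brd3 between Prm2-/- and Prm2+/+ to -0.0055 with DESeq2, all far inside their intervals. Leaving out 1 library at a time gave Brdt -0.15 to 0.047 between Prm2-/- and Prm2+/+, -0.22 to 0.18 between Prm2+/- and Prm2+/+ and -0.25 to 0.15 between Prm2-/- and Prm2+/-. Brd3 ran from -0.093 to 0.16 between Prm2-/- and Prm2+/+, and the log2 ratio of Brdt to Brd3 from -0.23 to 0.053. In the other comparisons that ratio ran from 0.056 to 0.49 between Prm2+/- and Prm2+/+ and from -0.56 to -0.13 between Prm2-/- and Prm2+/-. The ratio of Brdt to Brd2 ran from 0.24 to 0.53, -0.42 to -0.12 and 0.53 to 0.74 over the comparisons of Prm2-/- with Prm2+/+, Prm2+/- with Prm2+/+ and Prm2-/- with Prm2+/-, and that of Brd3 to Brd2 from 0.30 to 0.76, -0.66 to -0.19 and 0.87 to 1.09. Brd3 between Prm2-/- and Prm2+/- kept an LFC of 0.26 to 0.34, and its unadjusted p fell from 0.0508 to 0.00496 with only the 6 libraries compared and to 0.00301 without replicate 3 of Prm2+/+ (adjusted p 0.412 and 0.316 by limma).

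The number of genes called between Prm2-/- and Prm2+/+, Prm2+/- and Prm2+/+, and Prm2-/- and Prm2+/- was 27, 12 and 26. It was 9, 1 and 11 with at least 10 reads in every library, 15, 6 and 14 with the replicate block, and 140, 66 and 113 with DESeq2. With only the 6 libraries compared it was 53 and 52 for the Prm2-/- comparisons, and with a filter of 1 read in any library it was 21 between Prm2+/- and Prm2+/+. Leaving out 1 library gave 28 to 62, 9 to 43 and 23 to 49. The cause of these moves was not tested.

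Replicate numbers are shared by the genotypes, but deviations of libraries with the same number correlated by only -0.037 to 0.042 across genes, so the numbers were not taken to pair the libraries. With the replicate number as a block, Brd2 had LFC of -0.48 against Prm2+/+ and -0.65 against Prm2+/-. Its p by limma was 0.000493 and 9.17e-05 unadjusted, and 0.229 and 0.0757 adjusted. No BET gene was called with the block.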
